A study of Homo sapiens with 16 samples.

Results

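The genes described are 41 listed genes of DNA replication and S phase, chosen by name: the MCM2-7 helicase and its loaders, the proteins that switch the helicase on, the proteins of the fork, nucleotide supply, chromatin copying and the cyclin E and E2F1 control of S-phase entry. Of these, 40 had a row in the count table and all 40 passed the filter on low counts, among 14035 genes tested of 20114 in the table. The expression of UHRF1 was not analysed here. The 16 libraries came from 2 lines, Hs578, whose label is breast cancer cells, and TT642, whose label is rhabdoid tumor cells, while the series' design text calls both lines triple-negative breast cancer. From each line there was 1 parental library without a hairpin and without doxycycline, 1 parental library with doxycycline at 3 µg/ml, and libraries of 3 derived lines, each with a different tetracycline-inducible short hairpin RNA (shRNA) against PRRX1, without doxycycline (n = 3) and with doxycycline at 3 µg/ml (n = 3). PRRX1 is a homeobox transcription factor of mesenchymal cells. A group of hairpin lines is therefore 1 library for each of 3 hairpins in 1 cell line, and the labels do not say whether these libraries are separate cultures beyond the hairpin they carry. The p-values measure the spread among these libraries.

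Before S phase, the origin recognition complex (ORC), CDC6 and CDT1 load the MCM2-7 ring on DNA, a step called licensing. The kinases CDC7-DBF4 and the cyclin-dependent kinases then recruit CDC45 and the GINS complex, which turn the ring into a working helicase, and polymerases, the sliding clamp PCNA and its loader RFC copy the DNA behind it. Many of these genes are known targets of E2F transcription factors, which the retinoblastoma protein RB holds back until cyclin D and cyclin E kinases phosphorylate it, so their RNA is commonly read as a sign of cycling cells.

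Total counts ran from 13461527 to 24672906 per library. PRRX1 checked the labels: in Hs578 it stood at 291, 227 and 262 CPM (counts scaled to library size) in hairpin lines 1, 2 and 3 without doxycycline and at 37.1, 72.8 and 51 CPM with it. In TT642 it stood at 1210, 1410 and 1300 CPM without and at 265, 184 and 513 CPM with doxycycline. The parental lines showed no such drop, with 290 and 298 CPM in Hs578 and 1480 and 1530 CPM in TT642 without and with doxycycline. The mesenchymal marker VIM was at 4080 CPM or more in every library, but FN1, COL1A2, SPARC and THY1 were at 45.4 CPM or less in all 8 TT642 libraries. COL1A1 was at 88.1 to 1130 CPM in TT642 and 2040 to 12300 CPM in Hs578, and CDH2 at 73.7 to 499 CPM and 301 to 415 CPM. Of the epithelial markers, EPCAM, CDH1 and KRT19 were at 0.495 CPM or less in all 16 libraries, whereas KRT18 was at 185 to 401 CPM in Hs578 and at most 1.54 CPM in TT642. SMARCB1, whose loss defines most rhabdoid tumours, was present at 28.8 to 41.6 CPM in TT642 and at 87.7 to 125 CPM in Hs578. The 4 blood markers summed to at most 2.06 CPM and the 2 endothelial markers to at most 0.183 CPM in any library.

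The start-site regions of 6 of the genes are shown because these genes carry the results below: CLSPN, CDT1, E2F1 and CCNE1 were higher with doxycycline in the Hs578 hairpin lines, and MCM6, RFC3 and CCNE1 were the genes whose level was higher in every TT642 library than in any Hs578 library. Sequences are RefSeq windows of build GRCh38.p14, 250 bases before to 50 bases after the start, read 5′ to 3′ on the gene's strand, and 37 of the 41 genes, UHRF1 included, matched a window. Capitals mark exact matches, on either strand, to 1 of 4 spellings of the E2F motif, TTTCCCGC, TTTGGCGC, TTTCGCGC or TTTGCCGC. Spellings on opposite strands can overlap, as in MCM6.
CLSPN: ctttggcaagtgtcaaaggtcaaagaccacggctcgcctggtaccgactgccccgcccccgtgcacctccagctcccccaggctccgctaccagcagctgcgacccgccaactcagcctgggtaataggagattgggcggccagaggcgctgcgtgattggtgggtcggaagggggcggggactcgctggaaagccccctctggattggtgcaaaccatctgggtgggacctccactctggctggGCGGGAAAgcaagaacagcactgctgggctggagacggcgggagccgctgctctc
CDT1: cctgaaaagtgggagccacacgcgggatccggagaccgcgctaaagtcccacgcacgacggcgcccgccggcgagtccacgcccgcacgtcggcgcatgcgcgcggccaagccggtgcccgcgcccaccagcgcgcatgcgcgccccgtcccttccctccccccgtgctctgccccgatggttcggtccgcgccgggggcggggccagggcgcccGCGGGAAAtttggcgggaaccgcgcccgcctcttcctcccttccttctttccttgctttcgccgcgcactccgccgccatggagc
MCM6: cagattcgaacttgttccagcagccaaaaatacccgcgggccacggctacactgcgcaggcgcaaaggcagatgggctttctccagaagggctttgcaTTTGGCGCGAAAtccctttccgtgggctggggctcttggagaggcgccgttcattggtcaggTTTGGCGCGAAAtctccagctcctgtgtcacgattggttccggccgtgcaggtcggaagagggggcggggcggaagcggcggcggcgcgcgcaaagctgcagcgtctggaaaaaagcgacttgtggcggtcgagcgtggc
RFC3: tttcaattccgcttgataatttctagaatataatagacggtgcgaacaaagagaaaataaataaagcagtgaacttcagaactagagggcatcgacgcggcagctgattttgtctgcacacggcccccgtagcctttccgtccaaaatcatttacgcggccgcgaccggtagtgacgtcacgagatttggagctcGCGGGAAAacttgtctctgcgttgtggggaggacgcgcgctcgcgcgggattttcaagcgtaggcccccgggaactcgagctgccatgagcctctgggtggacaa
E2F1: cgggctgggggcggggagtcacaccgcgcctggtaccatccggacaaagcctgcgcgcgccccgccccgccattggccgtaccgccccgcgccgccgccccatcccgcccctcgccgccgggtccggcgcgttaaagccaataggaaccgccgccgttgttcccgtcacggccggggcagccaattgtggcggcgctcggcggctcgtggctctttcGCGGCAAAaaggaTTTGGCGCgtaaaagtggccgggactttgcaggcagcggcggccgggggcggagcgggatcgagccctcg
CCNE1: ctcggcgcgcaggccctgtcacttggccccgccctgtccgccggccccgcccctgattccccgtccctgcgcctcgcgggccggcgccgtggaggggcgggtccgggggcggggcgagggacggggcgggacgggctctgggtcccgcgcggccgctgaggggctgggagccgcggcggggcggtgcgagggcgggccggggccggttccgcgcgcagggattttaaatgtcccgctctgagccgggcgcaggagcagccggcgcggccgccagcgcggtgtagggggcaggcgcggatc

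CLSPN lies at chr1:35769929-35770228 (minus strand), CDT1 at chr16:88803539-88803838 (plus), MCM6 at chr2:135876394-135876693 (minus), RFC3 at chr13:33817899-33818198 (plus), E2F1 at chr20:33686336-33686635 (minus) and CCNE1 at chr19:29811741-29812040 (plus). The CLSPN match spans bases -5 to 2 around the start, the CDT1 match bases -35 to -28 and the RFC3 match bases -55 to -48. MCM6 holds 4 matches in 2 overlapping pairs, E2F1 holds 2, and these letters do not occur in the CCNE1 window. Over the set, 21 of 37 genes (56.8%) had a match in at least 1 window, beside 1090 of 27305 genes with a window (3.99%). The CCAAT box, a common promoter element recognised by NF-Y and searched as CCAAT on both strands, was found in 22 of the 37 genes (59.5%) and in 39.7% of all genes. A match is a stretch of letters and not evidence of binding. For E2F only the 4 exact spellings were searched, so a window without a match is not evidence that a site is absent.

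The first comparison set the hairpin lines of Hs578 against those of TT642 without doxycycline. Of the 40 genes, 32 were higher in Hs578 at an adjusted p under 0.05 (edgeR quasi-likelihood test, Benjamini-Hochberg adjustment over all genes tested), beside 41% of all genes tested. Another 7 were higher in TT642, beside 39.7% of all genes. ORC6, a subunit of the origin recognition complex, was not called, at a log2 difference of 0.14 (95% interval -0.2 to 0.48). The median log2 difference of the 40 genes was 1.01, beside 0.01 for all genes tested. For comparison, all 30 genes of a mitosis list were higher in Hs578, with a median log2 difference of 3.06. In bulk RNA, fewer cells in S phase and less RNA of these genes per cell cannot be told apart. Each line is 1 cell line, so everything that differs between them enters this comparison.

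Nucleotide supply showed large differences. RRM2, the small subunit of ribonucleotide reductase, which makes deoxynucleotides, was at 281, 284 and 284 CPM in Hs578 hairpin lines 1, 2 and 3 and at 35.3, 36.4 and 36.8 CPM in TT642. That is 7.82-fold higher in Hs578 (log2 2.97, SE 0.15, adjusted p = 2.6e-10 by edgeR). RRM1, its large subunit, was 4.69-fold higher, at 219, 203 and 222 CPM against 46.3, 45.3 and 45.7 CPM. TYMS, which makes thymidylate, was only 1.42-fold higher, at 90.8 to 97.6 CPM against 61.3 to 71.2 CPM.

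The 2 cyclins E, which activate CDK2 at the entry to S phase, went opposite ways. CCNE2 stood at 23.6, 18.2 and 20.8 CPM in Hs578 and at 1.59, 2.09 and 1.39 CPM in TT642, 12.2-fold higher in Hs578 (log2 3.61, SE 0.19, adjusted p = 2.3e-10 by edgeR). CCNE1 stood at 11.6, 12.2 and 11.5 CPM in Hs578 and at 56.5, 49.3 and 51.4 CPM in TT642, 4.45-fold higher in TT642 (log2 -2.15, SE 0.11, adjusted p = 1.6e-10 by edgeR). The groups did not overlap for either gene, in opposite orders. E2F1, an activating E2F, was 3.61-fold higher in Hs578, at 41.9 to 46.1 CPM against 11.2 to 13.2 CPM.

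Within complexes the subunits did not share 1 ratio. Of the 6 MCM2-7 genes, MCM4 was 4.12-fold, MCM7 2.78-fold, MCM2 2.35-fold, MCM5 1.93-fold and MCM3 1.5-fold higher in Hs578. MCM4 was at 287, 267 and 277 CPM in Hs578 and at 68.3, 62.7 and 70.8 CPM in TT642. MCM6 alone was higher in TT642, at 127, 112 and 130 CPM against 69.5, 69.2 and 74.4 CPM in Hs578 (1.73-fold, log2 -0.79, SE 0.096, adjusted p = 2.1e-06 by edgeR). All 4 GINS genes were higher in Hs578, from 2.05-fold for GINS3 to 4.93-fold for GINS2. GINS2 was at 28.6, 32.5 and 35 CPM in Hs578 hairpin lines 1, 2 and 3 and at 6.69, 5.64 and 7.18 CPM in TT642, and GINS1, 4.44-fold higher, was at 58.8, 48.2 and 50.4 CPM and at 12.9, 11.4 and 11.1 CPM. Neither gene's groups overlapped. Among the 4 small subunits of the clamp loader, RFC4 was 3.03-fold, RFC2 1.59-fold and RFC5 1.46-fold higher in Hs578. RFC3 was 2.22-fold higher in TT642, at 60, 95.9 and 61.5 CPM against 36.3, 28.3 and 33.3 CPM (log2 -1.15, SE 0.18, adjusted p = 3.8e-05 by edgeR). The TT642 hairpin 2 library was the high one, and the lowest TT642 value still exceeded every Hs578 value.

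Of the other licensing factors, ORC1 was 2.78-fold, CDC6 1.97-fold and CDT1 1.44-fold higher in Hs578. CDC45, the GINS partner in the helicase, was 2.56-fold, the firing kinase subunit DBF4 1.99-fold and MCM10 1.9-fold higher, whereas CDC7, the kinase that DBF4 activates, was 1.25-fold higher in TT642 (adjusted p = 0.037 by edgeR). CLSPN, which encodes claspin, the mediator between stalled forks and the checkpoint kinase CHK1, was 4.41-fold higher in Hs578, whereas TIPIN, which works with TIMELESS at the fork, was 1.36-fold higher in TT642. PCNA was 2.84-fold and FEN1, which removes flaps from lagging-strand fragments, 3.07-fold higher in Hs578. Of the polymerase genes, PRIM1 was 4.02-fold, POLA2 3.1-fold, POLE 1.42-fold, POLD1 1.37-fold and POLA1 1.3-fold higher in Hs578, and POLE2 was 1.68-fold higher in TT642. PRIM1, the primase subunit that makes RNA primers, was at 15.6, 16.5 and 17.3 CPM in Hs578 and at 3.91, 4.67 and 3.67 CPM in TT642. CHAF1A, a subunit of the histone chaperone CAF-1, was 3.29-fold higher in Hs578. SLBP, which binds histone messenger RNA, was 1.13-fold higher in TT642 (adjusted p = 0.038 by edgeR), a call lost with the hairpin number as a block (adjusted p = 0.055).

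**Figure D1:**
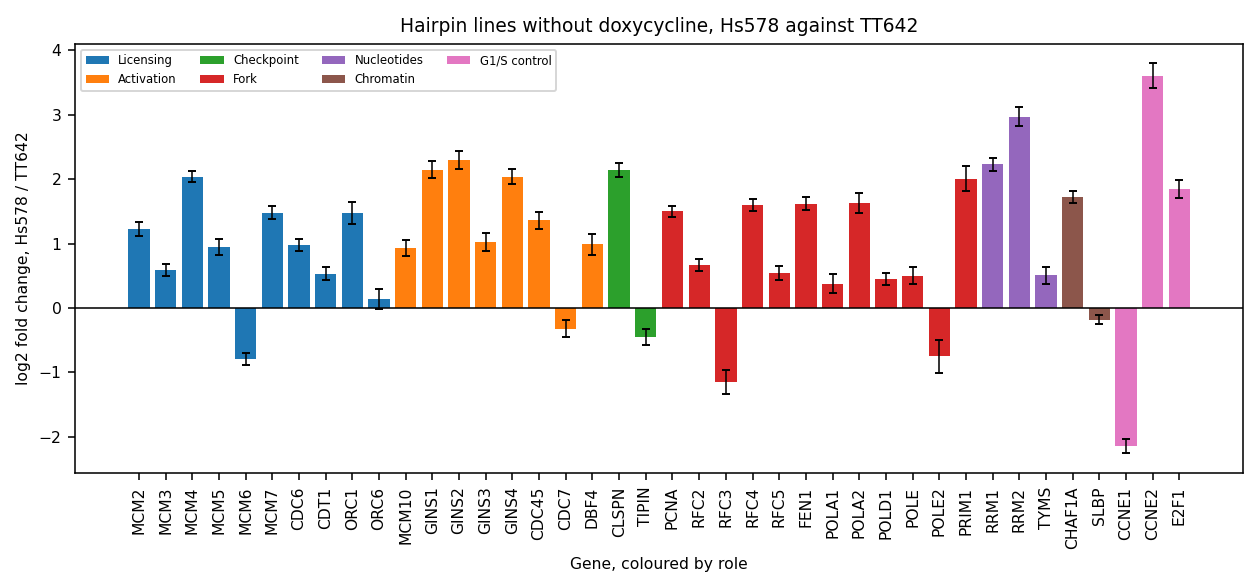
Bars show the log2 fold change of each gene in Hs578 over TT642 hairpin lines without doxycycline (n = 3 against 3), coloured by role, with error bars of 1 SE. CCNE2 at 3.61 and RRM2 at 2.97 stand highest, and CCNE1 at -2.15 and RFC3 at -1.15 lowest.

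The sign of the difference was the same in the parental libraries without doxycycline for 39 of the 40 genes, with CDC7 the exception at a log2 ratio of 0.13. Over all 8 libraries of each line, 21 genes were higher in every Hs578 library and 16 overlapped. The other 3 (MCM6, RFC3 and CCNE1) were higher in every TT642 library. Such separation was not counted over all genes tested, so these counts describe the 40 genes and set no contrast with others. By the test above 41% of all genes were called higher in Hs578 and 39.7% in TT642. Limma on log2(FPKM + 1) called 26 genes higher and 6 lower, beside 4872 and 6006 of 14035 genes tested. CDT1, RFC5, POLA1, POLD1, POLE, POLE2 and TYMS lost their calls. On that scale CDT1 differed by 0.08 and POLD1 by 0.07 on the log2 scale, beside 0.53 and 0.45 in CPM.

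Levels of different genes were compared per length, in FPKM. In Hs578 hairpin lines without doxycycline RRM2 was first at 95.5 ± 2.68 FPKM (SD, n = 3), PCNA was next at 91.6 ± 4.58 FPKM, within the summed spread of both, and MCM4 followed at 75.5 ± 6.87 FPKM. RFC4 at 60 ± 4.84, RRM1 at 57.3 ± 3.65, MCM5 at 54.2 ± 2.6, TYMS at 53.8 ± 4.42 and MCM7 at 50.7 ± 3.82 FPKM formed a run in which neighbours lay within their SDs. The lowest was POLE2, a subunit of polymerase epsilon, at 2.23 ± 0.859 FPKM. In TT642 the order was another one. SLBP was first at 52.2 ± 2.1 FPKM, TYMS second at 43.8 ± 5.81 FPKM, PCNA followed at 35.7 ± 1.27 FPKM and CCNE1 came next at 33.9 ± 2.62 FPKM, a gap to PCNA smaller than its own SD. CCNE1 ranked 36 of 40 in Hs578 at 6.42 ± 0.927 FPKM, and CCNE2 ranked last in TT642 at 0.608 ± 0.094 FPKM.

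The next comparison asked what changed in Hs578 hairpin lines when the hairpins against PRRX1 were induced. Of the 40 genes, 8 were higher with doxycycline at an adjusted p under 0.05 (edgeR quasi-likelihood test), beside 15.2% of all genes tested. GINS4, a subunit of the GINS complex, was the 1 gene called lower, beside 14.1% of all genes. The median log2 fold change of the 40 genes was 0.13, with 0 for all genes tested. Limma on log2(FPKM + 1) gave another split, with CLSPN, FEN1 and CCNE1 higher and MCM4, GINS4, CDC6 and POLA2 lower. In that fit 1352 of 14035 genes tested were called higher and 3112 lower, and the median of all genes was -0.08. The share of counts on mitochondrial genes was 2.16% to 2.79% in the uninduced hairpin libraries and 3.18%, 4.27% and 5.44% in induced hairpin libraries 1, 2 and 3, and its part in these results was not tested.

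In the control of S-phase entry, CCNE1 rose from 11.6, 12.2 and 11.5 CPM in hairpin lines 1, 2 and 3 to 18.4, 16.8 and 20.8 CPM (1.59-fold, log2 0.67, SE 0.12, adjusted p = 0.0014 by edgeR). All 3 induced libraries lay above every uninduced and parental one. E2F1 rose from 43.7, 41.9 and 46.1 CPM to 67.3, 54.4 and 58.1 CPM (1.37-fold, log2 0.45, SE 0.13, adjusted p = 0.02 by edgeR). CCNE2 stood at 23.6, 18.2 and 20.8 CPM before and 27.6, 21.1 and 22.6 CPM after, which was not called (log2 0.19, adjusted p = 0.39 by edgeR).

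CLSPN rose from 56.8, 56.1 and 55.3 CPM to 86.4, 73.3 and 98.2 CPM (1.53-fold, log2 0.62, SE 0.1, adjusted p = 0.0013 by edgeR). Its uninduced libraries lay close together, and the 3 induced ones all lay above them. It was the 1 member of the 9 called that kept its call under all 17 alternatives. TIPIN was not called, at 0.14 on the log2 scale.

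Of the licensing factors, CDT1 alone was called, from 29.7, 30.4 and 28.3 CPM to 42.6, 38.9 and 41.5 CPM (1.39-fold, log2 0.48, SE 0.1, adjusted p = 0.0041 by edgeR). The groups did not overlap. The 6 MCM2-7 genes lay between -0.1 and 0.13 on the log2 scale and none was called. CDC6 was at -0.01, ORC1 at -0.11 and ORC6 at 0.25.

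Of the activation factors, GINS4 fell from 147, 139 and 151 CPM to 128, 117 and 101 CPM (log2 -0.34, SE 0.12, adjusted p = 0.042 by edgeR). The other 3 GINS genes were at 0.17, 0.27 and 0.19 on the log2 scale and were not called, nor were CDC45 at 0.3, CDC7 at 0.16, MCM10 at -0.04 and DBF4 at -0.26. The subunits of 1 complex thus had estimates on both sides of 0.

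At the fork, FEN1 rose from 61.3, 69.7 and 66.1 CPM to 92, 75.7 and 87.6 CPM (1.3-fold, log2 0.37, SE 0.099, adjusted p = 0.013 by edgeR). RFC2 rose from 46.3, 48.8 and 48.7 CPM to 64.7, 53.6 and 64.9 CPM (1.28-fold, log2 0.35, SE 0.095, adjusted p = 0.014 by edgeR). RFC3, RFC4 and RFC5, its partners in the loader, were at -0.18, -0.12 and -0.04 and were not called. PCNA rose from 141, 134 and 142 CPM to 177, 154 and 161 CPM (1.18-fold, log2 0.24, SE 0.08, adjusted p = 0.038 by edgeR). POLA1, the catalytic subunit of the polymerase that starts each DNA strand, stood at 49, 50.6 and 46 CPM before and 47.5, 35.6 and 29.8 CPM after (log2 -0.37, adjusted p = 0.089 by edgeR), and it was called with the hairpin number as a block (adjusted p = 0.025). The remaining polymerase genes lay between -0.2 for PRIM1 and 0.25 for POLE2 and were not called.

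SLBP rose from 55, 54.1 and 50.9 CPM to 61.7, 61.5 and 64.1 CPM (1.17-fold, log2 0.23, SE 0.074, adjusted p = 0.033 by edgeR), although limma on log2(FPKM + 1) put it at -0.03. CHAF1A missed the threshold at 0.24 on the log2 scale (adjusted p = 0.056 by edgeR). RRM2 was at 281, 284 and 284 CPM before and 405, 236 and 290 CPM after, with hairpin 1 above, hairpin 2 below and hairpin 3 near its uninduced library (log2 0.13, adjusted p = 0.51 by edgeR). RRM1 at 0.05 and TYMS at 0.25 were not called either.

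The count of 9 called genes fell to 4 without hairpin 1 and to 1 without hairpin 3. It fell to 3 and 5 without the uninduced hairpin 1 or 2 library, and to 5 without the induced hairpin 3 library. Calls over all genes tested fell too, from 4118 to 2678 without hairpin 1 and to 840 without hairpin 3. They were 2253 and 3513 without the uninduced hairpin 1 or 2 library, and 2680 without the induced hairpin 3 library. PCNA and SLBP each lost their call under 14 of the 17 alternatives, GINS4 under 8, E2F1 under 7, RFC2 under 6, CDT1 and FEN1 under 3 each, and CCNE1 under 1, without hairpin 3 (adjusted p = 0.06).

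**Figure D2:**
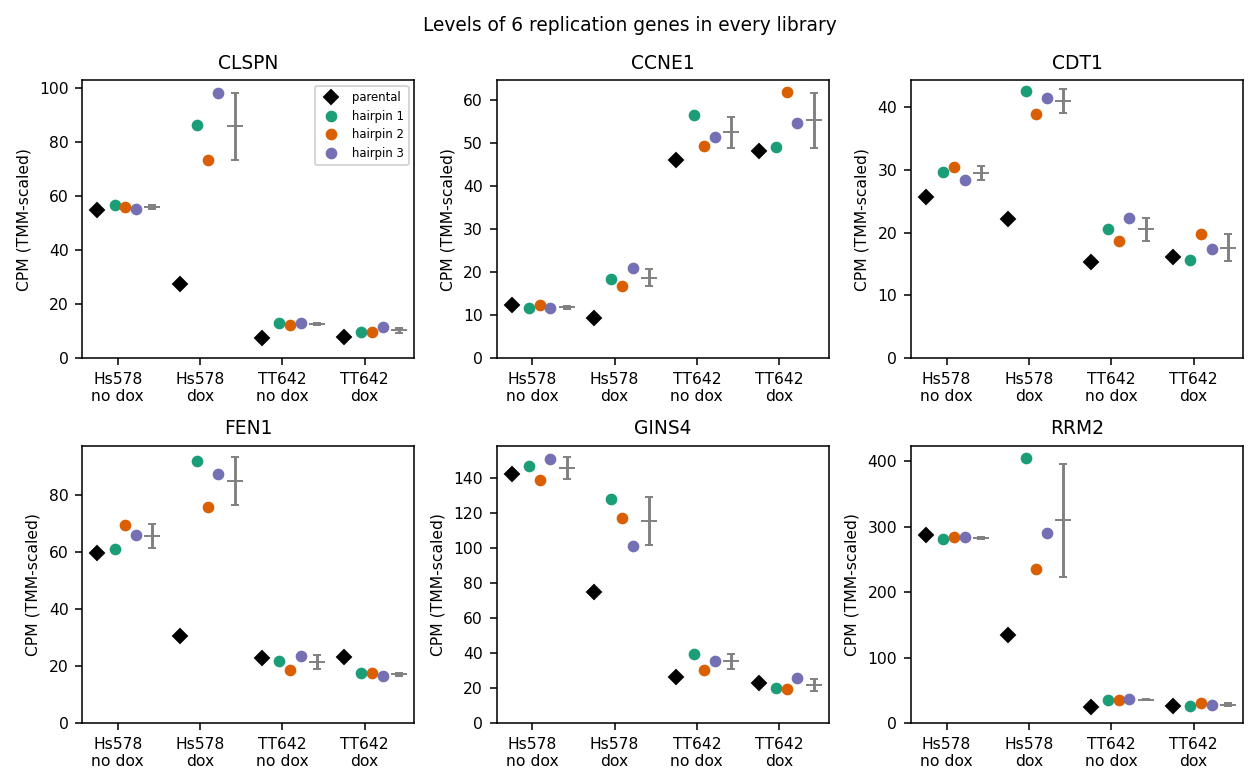
Points show CPM in every library for 6 genes, by line and doxycycline (dox), with diamonds for parental libraries, circles for hairpin lines 1 to 3, and grey bars for the mean ± SD of the 3 hairpin lines. CLSPN, CCNE1, CDT1 and FEN1 were higher in the 3 induced Hs578 hairpin libraries than in the 3 uninduced ones, GINS4 was lower, and RRM2 overlapped.

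**Figure D3:**
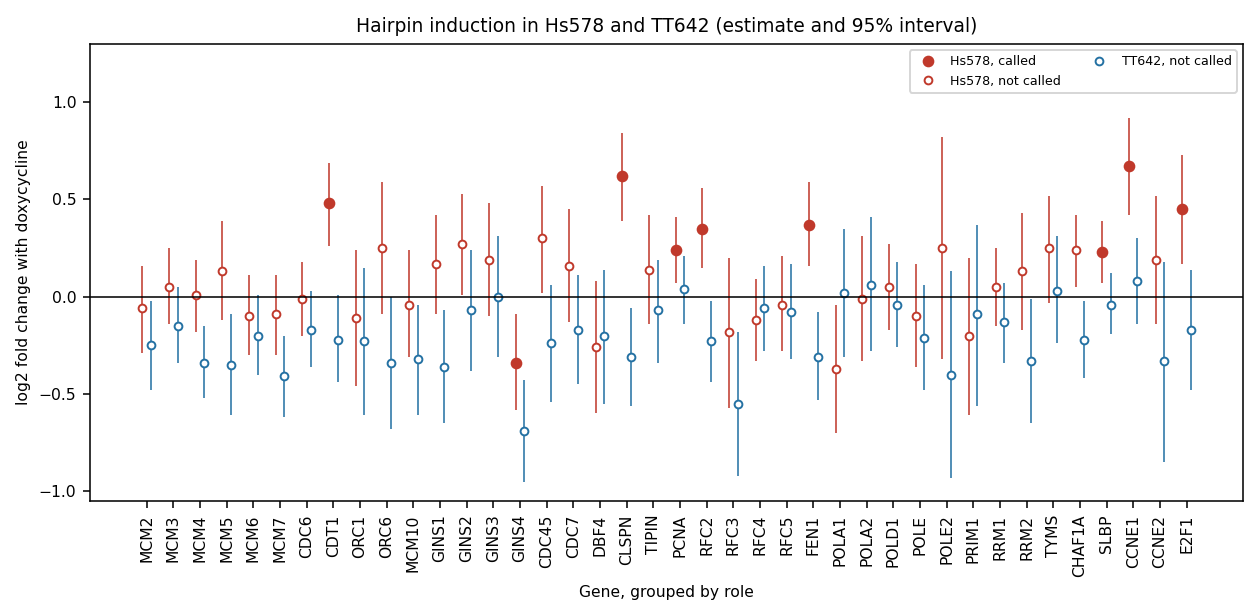
Points show the log2 fold change with doxycycline in the hairpin lines of Hs578 (red) and TT642 (blue) for each gene, with 95% intervals and filled symbols for genes called. In Hs578 9 genes are filled, and in TT642 none.

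The parental lines received doxycycline without a hairpin. In parental Hs578, 31 of the 40 genes were at least 1.5-fold lower with doxycycline, beside 11.5% of all genes tested. The pair is 1 library against 1, so it has no replicate check and no test. The median log2 ratio of the 40 genes was -0.77 in this pair, with 0 for all genes, beside 0.21, -0.02 and 0.02 in the pairs of hairpins 1, 2 and 3. The parental doxycycline library was the lowest of the 8 Hs578 libraries for 39 of the 40 genes, beside 19.6% of all genes tested, and SLBP was the exception. Summed over the 40 genes it held 1610 CPM, against 2660 to 3330 CPM in the other 7 Hs578 libraries.

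MCM10, which helps activate the helicase, was at 24 CPM without and 8.5 CPM with doxycycline in the parental pair, so that 35.5% was left (95% exact binomial interval 28.8% to 43.4%, for counting error only). CDC6 went from 54.3 to 22.9 CPM (42.1% left, interval 37.1% to 47.8%). RRM2 went from 288 to 135 CPM (46.8% left, interval 44.4% to 49.3%). All 3 intervals lay below that of PCNA, of which 67.5% was left (63.1% to 72.1%).

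CLSPN and FEN1, which were higher with doxycycline in the hairpin lines, were lower in the parental pair, with 50.1% and 51.2% left. CCNE1 and E2F1 kept 75.7% and 72% and CDT1 kept 86% (interval 74.4% to 99.5%). SLBP was level, at 53.2 and 53.6 CPM (101% left, interval 91.5% to 111%). GINS4 was lower in the parental pair too, with 53% left.

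The same library was also low for mitosis genes, of which all 30 were lower with doxycycline, 26 of them at least 1.5-fold, with a median log2 ratio of -0.87. Its share of counts on mitochondrial genes was 4.16%, between those of the induced hairpin 1 and hairpin 2 libraries, and its part in the result was not tested. In parental TT642 the median log2 ratio of the 40 genes was 0.03, and none of them passed 1.5-fold in either direction, beside 2.76% of all genes higher and 3.49% lower.

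**Figure D4:**
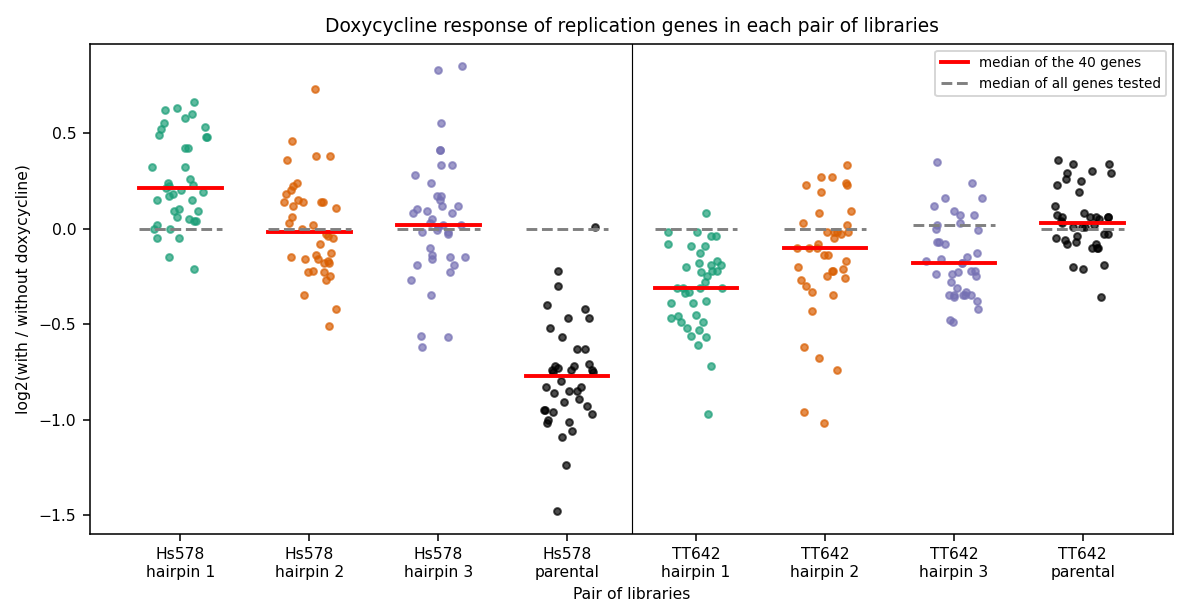
Each point is 1 of the 40 genes in 1 pair of libraries, with and without doxycycline, on the log2 scale, with the median of the 40 genes in red and the median of all genes tested in dashed grey. The parental Hs578 pair has its median at -0.77, and the other 7 pairs have medians from -0.31 to 0.21.

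Set against the parental pair, the hairpin effect in Hs578 was called higher for 9 of the 40 genes (edgeR quasi-likelihood test of the difference between the 2 doxycycline effects), beside 0.292% of all genes tested. All 40 estimates were above 0, with a median of 0.86. This contrast rests on the 1 parental doxycycline library described above, whose spread was assumed to be that of the hairpin groups, and it repeats that library's low values. The genes called were CLSPN (log2 1.62, SE 0.22, adjusted p = 0.016 by edgeR), MCM10 (1.46), FEN1 (1.34), GINS2 (1.33), CDC6 (1.24), RFC2 (0.99), MCM3 (0.98), CHAF1A (0.94) and PCNA (0.8). With a term for each derived line as the replicate block, 14 genes were called, with MCM4, GINS1, RRM1, RRM2 and TYMS added. In that fit 86 of 14035 genes tested were called higher, against 41 in the main fit. No gene of the 40 was called when the Hs578 libraries were fitted alone, and none without hairpin 1 or without hairpin 3. Over all genes tested, these fits called 1, 1 and 0 higher. With single libraries left out, the count of members was 1 without the uninduced hairpin 1 or hairpin 3 library, where 4 of all genes were called higher in each fit. The count of members was 4 without the uninduced hairpin 2 or the induced hairpin 3 library, where 26 and 30 of all genes were called higher. It was 14 without the induced hairpin 2 library. In that last fit 74 of 14014 genes tested were called higher.

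**Figure D5:**
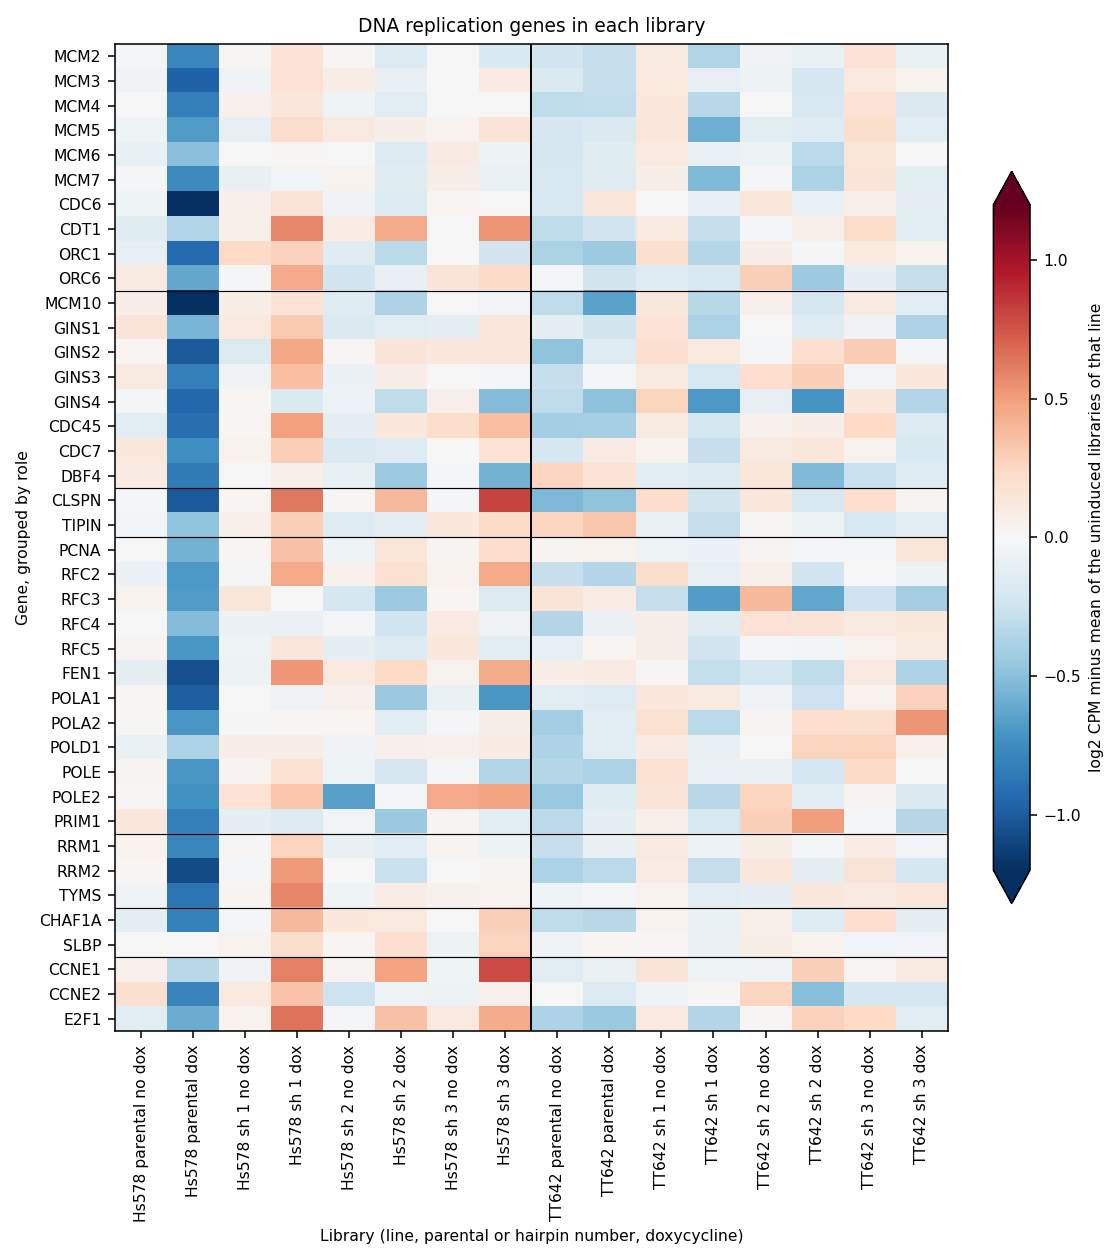
Colours show log2 CPM of each gene in each of the 16 libraries minus the mean of the 4 uninduced libraries of its line, with genes grouped by role and colours capped at 1.2 either way. The parental Hs578 library with doxycycline is blue for 39 of 40 genes, with SLBP near white.

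In TT642 no gene of the 40 passed an adjusted p under 0.05 with doxycycline in the hairpin lines (edgeR quasi-likelihood test), beside 0.0285% of all genes tested. Of the 40, 13 had an unadjusted p under 0.05, all with lower values, and 1098 of all genes tested did. The estimates were below 0 for 35 of 40, with a median of -0.21, beside 0 for all genes. In 17 of the 40 genes the 3 induced libraries all lay below the 3 uninduced ones, beside 6.31% of all genes tested. The mitosis list had a median of -0.2 with 28 of 30 estimates below 0, and none of its genes was called.

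GINS4 had the largest estimate, from 39.6, 30.6 and 35.8 CPM to 20.1, 19.8 and 25.6 CPM (log2 -0.69, SE 0.12, adjusted p = 0.082 by edgeR). The groups did not overlap. It was called with the replicate block (adjusted p = 0.023) and by DESeq2, and also when the induced hairpin 3 library was left out (log2 -0.82, adjusted p = 0.034). MCM7 stood at 68, 63.4 and 71.8 CPM before and 44.5, 49.6 and 59 CPM after (log2 -0.41, adjusted p = 0.22 by edgeR), and DESeq2 called it (adjusted p = 0.02).

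RFC3 stood at 60, 95.9 and 61.5 CPM before and 45.8, 47.3 and 54.9 CPM after (log2 -0.55, adjusted p = 0.38 by edgeR). All 6 MCM2-7 estimates were below 0, from -0.41 to -0.15. CLSPN stood at 13, 12.2 and 12.9 CPM before and 9.53, 9.71 and 11.4 CPM after (log2 -0.31, adjusted p = 0.51 by edgeR). CCNE1 at 0.08, PCNA at 0.04, TYMS at 0.03 and POLA1 at 0.02 had estimates near 0.

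Uninduced hairpin lines of TT642 held 1330, 1280 and 1340 CPM summed over the 40 genes and induced ones 1080, 1150 and 1220 CPM. The parental libraries, at 1130 and 1150 CPM without and with doxycycline, lay within the range of the induced lines. Net of the parental pair, no gene was called in TT642, beside 0% of all genes tested. Of the 40, 2 had an unadjusted p under 0.05, as did 179 of 14035 genes tested, and DESeq2 called 0. The median of this net contrast was -0.25.

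The effects in the 2 lines were then tested against each other. The change with doxycycline was more positive in Hs578 than in TT642 for 5 of the 40 genes (edgeR interaction test, adjusted p under 0.05), beside 2.76% of all genes tested. These were CLSPN (log2 difference 0.93, SE 0.16, adjusted p = 0.013), CDT1 (0.69, SE 0.15, adjusted p = 0.025), FEN1 (0.68, SE 0.15, adjusted p = 0.026), CCNE1 (0.59, SE 0.15, adjusted p = 0.043) and RFC2 (0.58, SE 0.14, adjusted p = 0.036). CDT1 stood at 20.5, 18.7 and 22.3 CPM in TT642 without and 15.6, 19.8 and 17.4 CPM with doxycycline. FEN1 stood at 22, 18.7 and 23.5 CPM without and 17.7, 17.5 and 16.7 CPM with it, and RFC2 at 32.7, 29.5 and 28.4 CPM without and 26.4, 24 and 27 CPM with it. Of the 40 estimates 35 were above 0, with a median of 0.3, and the lowest was POLA1 at -0.39 (adjusted p = 0.3 by edgeR).

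With a term for each derived line as the replicate block, 8 genes were called, with GINS1, E2F1 and CHAF1A added. In that fit 875 of 14035 genes tested were called higher, against 387 in the main fit. Without hairpin 1 or hairpin 3 no gene was called and without hairpin 2 there was 1. The count of members was 1 without any one of the uninduced hairpin 1 and 3 and induced hairpin 3 libraries of Hs578. It was also 1 without any hairpin 1 or 3 library of TT642, in either condition. These fits called 21 to 122 of all genes tested higher. Without the uninduced hairpin 2 library of Hs578 the count was 3, and 242 of all genes were called higher.

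Averaged over both lines, CCNE1 was the 1 gene called higher with doxycycline (log2 0.37, SE 0.077, adjusted p = 0.0082 by edgeR), beside 8.61% of all genes tested. Its log2 change was 0.67 in Hs578 and 0.08 in TT642, and the interaction test above called these different. GINS4 (log2 -0.51, SE 0.084, adjusted p = 0.0033 by edgeR) and MCM7 (log2 -0.25, SE 0.069, adjusted p = 0.027 by edgeR) were called lower, beside 6.51% of all genes. GINS4 kept this call under all 22 alternatives, and its 6 hairpin pairs of libraries had log2 ratios from -0.97 to -0.21. The parental pairs, without a hairpin, had GINS4 ratios of -0.91 in Hs578 and -0.19 in TT642. MCM7 ranged from -0.61 to 0.06 over its hairpin pairs and lost its call under 10 of the 22 alternatives. Its parental pairs were at -0.75 in Hs578 and 0.05 in TT642. With the replicate block MCM4 (log2 -0.17, adjusted p = 0.049) and RFC3 (log2 -0.36, adjusted p = 0.025) were called lower too. Without the induced hairpin 1 library of Hs578 10 genes were called, 9 of them lower (1400 of 14019 genes tested were called lower in that fit), and GINS4 alone was called without hairpin 2 or without hairpin 3. Limma on log2(FPKM + 1) called 0 genes higher and 5 lower.

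Other genes of replication and its control were taken from lists that hold none of the 40. Of 16 further origin, helicase and firing genes tested, 0 were called higher and 4 lower in Hs578 with doxycycline, beside 15.2% and 14.1% of all genes tested, with a median log2 fold change of -0.13. TOPBP1, a scaffold for helicase assembly and checkpoint signalling, fell from 122, 104 and 112 CPM to 92.9, 71.5 and 73.5 CPM (log2 -0.51, SE 0.11, adjusted p = 0.0045 by edgeR). MCM9 (log2 -0.46) and ORC4 (log2 -0.39) also fell, with calls lost under 8 and 5 of the 17 alternatives, and TOPBP1 lost its call without hairpin 3 (adjusted p = 0.073). TOPBP1 was low in the parental doxycycline library as well, at 70.7 CPM against 133 CPM, and MCM9 and ORC4 had log2 ratios of -0.66 and -0.47 in that pair.

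Of 21 further fork, clamp and polymerase genes, 4 were higher and 1 lower in Hs578 (15.2% and 14.1% of all genes), with a median of 0.13. RPA3, a subunit of the single-strand binding protein, rose from 17.8, 21.4 and 21.7 CPM to 27.3, 25.5 and 30 CPM (log2 0.44, SE 0.12, adjusted p = 0.016 by edgeR). POLD4 (log2 0.68) and RNASEH2A (log2 0.3) were called higher as well, and these 3 calls were lost under 4, 6 and 13 of the 17 alternatives. In the parental Hs578 pair, without a hairpin, POLD4 was at 28.9 and 46.7 CPM without and with doxycycline (log2 0.69), and RPA3 and RNASEH2A had log2 ratios of -0.01 and -0.38. Between the lines TOP2A, which untangles copied DNA, differed most among those called in this list, at log2 3.39 higher in Hs578.

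Of 15 further nucleotide and chromatin assembly genes, 3 were higher and 1 lower in Hs578 (15.2% and 14.1% of all genes), with a median of 0.06. NASP, a histone chaperone, rose from 150, 160 and 162 CPM to 209, 216 and 214 CPM (log2 0.44, SE 0.081, adjusted p = 0.0019 by edgeR) and kept its call under all 17 alternatives. ASF1B, another histone chaperone, rose from 38.7, 38.6 and 40.7 CPM to 60.4, 56.7 and 53.3 CPM (log2 0.53, adjusted p = 0.0029 by edgeR). SAMHD1, which breaks down deoxynucleotides, fell from 93.4, 91.5 and 91.2 CPM to 67.7, 57.8 and 59.9 CPM (log2 -0.57, adjusted p = 0.0028 by edgeR). The groups overlapped for none of these 3 genes, and the SAMHD1 call was lost without hairpin 3 (adjusted p = 0.056). In the parental Hs578 pair SAMHD1 was at 97.2 and 53.9 CPM without and with doxycycline (log2 -0.85), and NASP and ASF1B had log2 ratios of -0.22 and -0.24.

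Of 25 E2F and RB control genes, 6 were higher and 5 lower in Hs578 (15.2% and 14.1% of all genes), with a median of -0.02. E2F7, a repressor E2F, fell from 186, 157 and 167 CPM to 87.3, 89.8 and 72.6 CPM (log2 -1.03, SE 0.11, adjusted p = 0.00012 by edgeR). It kept its call under all 17 alternatives, and the parental pair stood at 212 and 120 CPM. In TT642 it was at 14.5, 14.2 and 16.2 CPM without and 12, 15.3 and 15.8 CPM with doxycycline, and the effects differed between lines (log2 difference -0.98, adjusted p = 0.013 by edgeR), a call lost without hairpin 2 (0.072) and without hairpin 3 (0.2). CCND2 (log2 1.55) and CCND3 (log2 0.51), cyclins that start RB phosphorylation, were called higher in Hs578. CCND2 was low, at 1.74, 2.56 and 1.67 CPM without and 4.15, 4.78 and 8.22 CPM with doxycycline. CCND1, the other cyclin D of the list, stood far higher and went the other way. It was at 903, 945 and 881 CPM without and 808, 808 and 736 CPM with doxycycline, and at 909 and 1160 CPM in the parental pair. The effect on MYBL2, a partner of the MuvB complex, differed between lines by 0.76 on the log2 scale (adjusted p = 0.026 by edgeR), a call lost under 11 of the 22 alternatives. The CCND2 call was lost under 8 of 17 alternatives and the CCND3 call under 4, and in the parental pair their log2 ratios were 0.66 and 0.19.

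The lines also differed in these control genes. CDK6, a kinase partner of cyclin D, was at 87.4 to 111 CPM in uninduced Hs578 hairpin lines and at 0.146 to 0.946 CPM in TT642 (log2 7.63, SE 0.56, adjusted p = 4.7e-07 by edgeR). CCND2 was at 1.67 to 2.56 CPM in Hs578 and 169 to 225 CPM in TT642 (log2 -6.66, SE 0.4, adjusted p = 6.1e-08 by edgeR). Of 7 CDK inhibitor genes, CDKN2D was called higher with doxycycline in Hs578 (log2 0.61, adjusted p = 0.0072 by edgeR) and none was called lower, beside 15.2% and 14.1% of all genes. The parental pair stood at 21.3 and 29.4 CPM for CDKN2D (log2 0.46). Between the lines 3 of the 7 were higher in Hs578, among them CDKN2C at log2 4.24 and CDKN2B at 3.64, and 4 were higher in TT642, beside 41% and 39.7% of all genes tested. Of the 30 mitosis genes, AURKB (log2 0.53) and UBE2C (log2 0.59) were among 3 called higher with doxycycline in Hs578 and ECT2 (log2 -0.64) was the 1 called lower (15.2% and 14.1% of all genes). In the parental pair these 3 genes had log2 ratios of -0.49, -0.19 and -1.09. In TT642 none of the genes of these 6 lists was called.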

How the data were processed

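The authors deposited a table of raw counts, with 20114 gene symbols and 16 libraries, and FPKM values (fragments scaled by transcript length and depth) for 20111 genes. Libraries were of polyadenylated RNA from a stranded kit per the labels, and the submitters' processing notes name hg19. No aligner, counter, annotation or strand setting is given in the sources used here, so reads of overlapping or antisense genes may be shared. The main test of the counts was run in edgeR 4.0.16 under R 4.3.3: TMM scaling, its default expression filter, the robust quasi-likelihood test, 1 mean for each of 8 groups, 8 residual degrees of freedom, two-sided, Benjamini-Hochberg adjustment over 14035 genes, and a threshold of 0.05 on the adjusted p. CPM values are scaled by TMM, and ratios of single pairs used a prior count of 2. CPM and the deposited FPKM did not keep 1 ratio per gene across libraries. MCM4 was at 279 CPM and 90.9 FPKM in the uninduced parental Hs578 library. In the induced Hs578 hairpin 3 library it was at 278 CPM and 49.9 FPKM. RRM1 was at 223 CPM and 59.8 FPKM, and at 207 CPM and 52 FPKM, in these libraries. The reason was not tested.

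The hairpin numbers were taken as pairs because the labels give the same derived line for both conditions. Across genes, deviations from the group means had correlations within a number of 0.13, -0.03 and 0 for Hs578, and of 0.44, 0.42 and 0.42 for TT642. Libraries differed by more than sampling noise in all 120 pairs (lowest chi-square per degree of freedom 5.38). On simulated data the test recovered 59.6% of genes changed 1.5-fold and 81.6% of those changed 2-fold for the Hs578 induction, and 1.06% and 23.7% for the Hs578 contrast net of the parental pair. All members were accounted for by role, with per-library values for those called with doxycycline and those with the largest differences between lines; other genes called between the lines are given by fold or range, and up to 3 called genes of each other list were named for a comparison. The members, the lists and this rule were chosen with earlier results of these data known. CCND1 was named outside this rule, as the other cyclin D of its list. Alternatives were relative log expression scaling, no filter, DESeq2 1.42.0, limma 3.58.1 on log2(FPKM + 1) and log2(FPKM + 0.1), no robust moderation, a replicate block, fewer libraries in the fit, and leaving out each hairpin or library. UHRF1 enters the promoter counts but no expression result.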

Additional observations from a re-analysis of the deposited data

Results flagged for a closer look

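Of the 40 genes, 5 responded differently to doxycycline in the hairpin lines of Hs578 and TT642 by an interaction test in edgeR, each more positive in Hs578. The log2 difference was 0.93 for CLSPN, 0.69 for CDT1, 0.68 for FEN1, 0.59 for CCNE1 and 0.58 for RFC2. The CLSPN call was lost under 3 of 22 alternatives (without hairpin 1, 2 or 3), with adjusted p-values from 0.00013 to 0.17 over all 22. FEN1 lost its call under 11 of them (adjusted p 0.0044 to 0.37), CDT1 under 12 (0.004 to 0.37), and RFC2 and CCNE1 under 14 each (0.0097 to 0.34 and 0.024 to 0.42).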

How the results depend on the processing

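The line difference kept most calls: 32 to 39 of 40 over all alternatives, with medians of 0.81 and 0.88 with limma on log2(FPKM + 1) and log2(FPKM + 0.1). Those 2 settings put the median of all genes at -0.08 and -0.12 for the Hs578 induction (0 in edgeR) and at -0.11 and -0.15 for the line difference (0.01 in edgeR). In Hs578 they turned the median of the members to -0.15 and -0.16, MCM4 to -0.46 and -0.47 (called lower) and SLBP to -0.03 in both. The difference between lines then had 2 calls in both and medians of 0.05 and 0.06. The mean over lines had 5 calls with log2(FPKM + 1), medians of -0.14 and -0.16, 5 calls and a median of -0.07 with DESeq2, and a median of -0.07 with relative log expression scaling. Over all genes tested, the mean over lines had 2450 calls of 14035 with log2(FPKM + 1) and 2596 of 12178 with DESeq2. In TT642 1 gene of the 40 was called with no filter and 2 with DESeq2. The Hs578 effect net of the parental pair had 5 calls with relative log expression scaling and 16 with DESeq2. In these 2 settings 27 of 14035 and 161 of 11153 genes tested were called higher. The net Hs578 effect had 2 and 1 calls with limma on FPKM, and 0 when fitted alone. With the replicate block the calls numbered 10 in Hs578, 1 in TT642, 8 for the difference between lines, 5 for the mean, 38 for the line difference and 14 for the net Hs578 effect, and 0 for the net TT642 effect; beyond the genes named above it changed no other call of a member. Leaving out a hairpin or a library gave 1 to 9 calls in Hs578, 0 to 1 in TT642, 0 to 7 for the difference between lines, 1 to 10 for the mean, with medians of -0.1 to -0.01, 35 to 38 for the line difference, with medians of 0.98 to 1.13, and 0 to 14 for the net Hs578 effect. Over all genes tested, leaving out a hairpin or a library gave 840 to 4768 calls for the Hs578 induction and 0 to 6 for TT642. It gave 2 to 2082 for the difference between lines, 179 to 3185 for the mean and 0 to 139 for the net Hs578 effect. The causes of these changes were not tested. Parental groups hold 1 library each, which limits every statement on them.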
